A study of Mus musculus with 16 samples.

Results

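The transcripts described here are those of 10 genes of the circadian clock in healing mouse skin wounds: Clock, Npas2, Per1, Per2, Per3, Cry1, Cry2, Dbp, Nr1d1 and Nr1d2. They were taken as every probe set whose only gene symbol on the array's annotation is one of these names, which gave 23 probe sets out of 34945 with a single symbol, and 10 genes out of 18193. Per3 had 6 probe sets, Clock 4, Per2 3, and Npas2, Dbp and Nr1d2 had 2 each, while Per1, Cry1, Cry2 and Nr1d1 had 1 each.

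Total RNA from dorsal incisional wounds of wild-type C57BL/6 mice, all labelled female, was measured on 16 Affymetrix arrays under a hypertrophic scarring model in which mechanical load is put on the wound. The 4 groups were unstressed wounds at day 6, stressed wounds at day 6 after 48 h of loading, unstressed wounds at day 14, and stressed wounds at day 14 after 10 days of loading. Each group held 4 arrays, which the design text assigns to 4 mice. The age of the mice, the hour at which tissue was taken and the lighting schedule are not stated in the labels, so the phase of the clock at harvest is unknown for every array. Values are log2 signals that the authors had centred probe set by probe set, so they give differences between arrays and no absolute level, and levels cannot be set against each other between genes. The log base is not stated and was read as 2. If the values were natural logs, each log2 difference would be larger than printed. The tissue is bulk wound, in which fewer cells of a type and less RNA per cell cannot be told apart.

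In mammals the clock is a feedback loop of transcription. CLOCK or its paralogue NPAS2 pairs with BMAL1 (gene symbol Arntl) on E-box sequences and switches on the Per and Cry genes, whose proteins return to the nucleus and inhibit the pair. The same E-boxes drive Nr1d1 and Nr1d2, which encode the nuclear receptors REV-ERB alpha and beta that repress Arntl, Clock and Npas2 through RORE sequences, and Dbp, a D-box-binding activator often read as the output of the loop. In skin the loop runs in keratinocytes, fibroblasts and hair follicles, and in most tissues Arntl and Npas2 peak at about the opposite phase to Dbp, Per and Nr1d1.

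The promoters of 5 genes are printed because each holds at least 1 of the first 5 motifs listed below. The windows come from RefSeq on the build GRCm38.p6 and run from 250 bases before to 50 bases after an annotated start, 300 bases in all, written 5′ to 3′ on the gene's own strand. There were 12 such windows for 9 of the 10 genes, and none for Per2. The search covered 7 motifs on both strands: the E-box CACGTG, the E-prime box CACGTT, the D-box TTANGTAA, the RORE TNGGTCA, the cAMP response element TGACGTCA, its shorter form TGACGT, which lies inside it, and the nuclear receptor site AGGTCA, which lies inside the RORE where N is A. The capitals mark every match to one of the first 5, on either strand. Cry1 lies at chr10:85185005-85185304 (minus strand), Cry2 at chr2:92434020-92434319 (minus strand), Per3 at chr4:151044616-151044915 (minus strand), Per1 at chr11:69098699-69098998 (plus strand) and Nr1d1 at chr11:98775328-98775627 (minus strand).
Cry1: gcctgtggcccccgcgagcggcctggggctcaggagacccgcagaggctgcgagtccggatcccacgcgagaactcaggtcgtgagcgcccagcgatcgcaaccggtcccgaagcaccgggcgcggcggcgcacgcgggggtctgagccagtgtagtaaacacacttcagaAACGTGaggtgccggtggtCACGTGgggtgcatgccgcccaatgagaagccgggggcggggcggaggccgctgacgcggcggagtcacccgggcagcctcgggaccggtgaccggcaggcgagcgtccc
Cry2: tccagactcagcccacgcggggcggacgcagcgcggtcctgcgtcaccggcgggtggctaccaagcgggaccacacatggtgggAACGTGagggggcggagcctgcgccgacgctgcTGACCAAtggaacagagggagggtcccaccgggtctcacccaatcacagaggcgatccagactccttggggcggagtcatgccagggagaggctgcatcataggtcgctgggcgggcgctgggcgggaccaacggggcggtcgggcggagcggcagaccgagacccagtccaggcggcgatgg
Per3: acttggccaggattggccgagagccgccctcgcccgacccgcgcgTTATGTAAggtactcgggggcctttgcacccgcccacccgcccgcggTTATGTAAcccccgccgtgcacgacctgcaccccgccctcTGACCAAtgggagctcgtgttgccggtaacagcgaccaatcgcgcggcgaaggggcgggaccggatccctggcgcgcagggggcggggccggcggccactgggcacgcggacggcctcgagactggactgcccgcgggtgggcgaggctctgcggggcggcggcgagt
Per1: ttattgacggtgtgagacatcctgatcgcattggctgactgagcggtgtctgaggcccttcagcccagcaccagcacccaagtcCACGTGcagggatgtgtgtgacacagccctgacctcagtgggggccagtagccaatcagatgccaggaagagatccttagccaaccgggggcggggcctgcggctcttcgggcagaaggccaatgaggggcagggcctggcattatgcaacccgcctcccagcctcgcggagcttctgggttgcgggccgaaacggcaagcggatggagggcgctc
Nr1d1: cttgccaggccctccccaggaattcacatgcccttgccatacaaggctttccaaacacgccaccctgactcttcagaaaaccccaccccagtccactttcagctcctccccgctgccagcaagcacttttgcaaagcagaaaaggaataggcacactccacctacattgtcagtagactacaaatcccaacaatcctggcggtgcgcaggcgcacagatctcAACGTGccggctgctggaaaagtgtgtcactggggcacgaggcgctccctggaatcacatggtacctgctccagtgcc
The Cry1 window has an E-box 60 bases and an E-prime box 79 bases before the start. The Cry2 window has an E-prime box at 166 and a RORE at 133 bases, and the Per3 window has D-boxes at 205 and 158 bases and a RORE at 118 bases before the start. Per1 has an E-box at 166 bases and Nr1d1 an E-prime box at 28 bases. The windows of Clock, Npas2, Dbp and Nr1d2 held none of the first 5 motifs. Neither E-box form was therefore found for Dbp or Nr1d2, nor a RORE for Clock or Npas2. Of all 32851 windows of this length, 7.15% hold CACGTG, 4.68% hold CACGTT, 2.32% hold TTANGTAA, 11% hold TNGGTCA and 1.79% hold TGACGTCA, which none of the 12 windows holds. The shorter TGACGT was found in 1 window, of Per1 (7.51% of all), and AGGTCA in 3, of Clock, Nr1d2 and Per1 (16.3% of all), so each motif also occurs at many other genes. A match describes the letters of the window and is not a measured binding site.

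Before the results, one feature of the arrays has to be stated. Although every mouse is labelled female, 12 arrays had a low Xist signal, between -0.53 and 0.81 on the centred log2 scale, and only replicates 3 and 4 of both day 14 groups had a high one, between 5.98 and 6.30. The mean of 2 Y-linked genes, Eif2s3y and Kdm5d, ran the other way, from -1.17 to 0.71 on the 12 arrays and from -4.37 to -4.29 on the other 4. The signals of the 12 arrays go against their label. All day 6 arrays are in the first class, and each day 14 group is split evenly, so a fit with the day 14 arrays of 1 class only is given beside several results that it changes, though not beside every one.

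Between day 6 and day 14 the activators Clock and Npas2 fell and Per2 rose, in unstressed and in stressed wounds alike. Nr1d1 fell, and at least 1 probe set of Per3 rose, at both loading states. For loading, no clock transcript passed the test at day 6. At day 14, 4 of the 23 probe sets passed, where 7.35% of all probe sets did. Cry1 and Cry2 were lower in stressed wounds, and Per3 moved in opposite directions on different probe sets. Dbp, the output gene, passed in no comparison and had the largest SD of the 23 probe sets in each of the 4 groups. The tests were limma fits over all 34945 probe sets with Benjamini-Hochberg adjustment and a threshold of 0.05.

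In unstressed wounds 10 of the 23 probe sets passed between day 6 and day 14, 5 higher and 5 lower, where 40.2% of all probe sets passed, 16.8% higher and 23.4% lower. They belonged to 6 of the 10 genes, against 56.9% of all genes with at least 1 probe set past the threshold. In stressed wounds 12 of 23 passed, 6 higher and 6 lower, where 45.3% of all probe sets passed, 18.7% higher and 26.6% lower, and they belonged to 7 of the 10 genes against 62.6% of all genes. The share of clock probe sets that passed was thus near that of the whole array. The median size of the difference, regardless of sign, was 0.70 for the 23 probe sets against 0.37 for all in unstressed wounds, and 0.54 against 0.41 in stressed wounds. In 8 probe sets of 5 genes the difference passed at both loading states, each time in the same direction. The arrays of the 2 days did not overlap for 8 of the 23 probe sets in unstressed wounds, against 38.4% of all. In stressed wounds this held for 12 of 23, against 39.9% of all. Separation of the days, given for single genes below, was therefore common on the whole array.

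**Figure D1:**
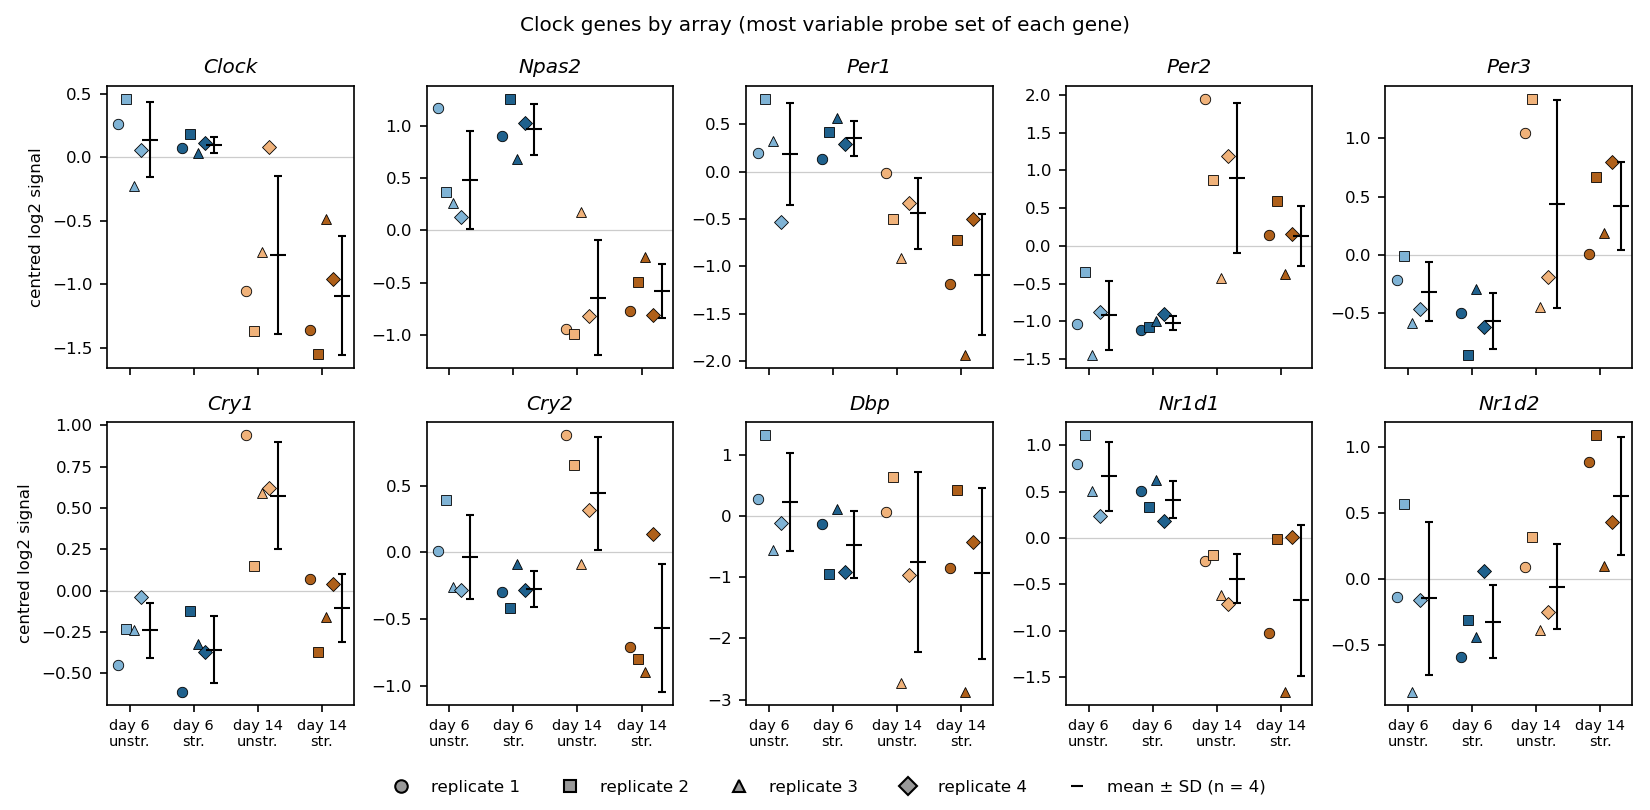
Centred log2 signal (vertical axis) of each clock gene's most variable probe set in the 4 groups, with 1 marker per array, the marker shape giving the replicate number and bars giving mean ± SD (n = 4). The day 14 arrays of Clock, Npas2 and Nr1d1 lie mostly below and those of Per2 above the day 6 arrays, and replicate 3 of both day 14 groups has the lowest Dbp values, -2.73 and -2.87.

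Clock encodes the histone-acetyltransferase-containing partner of BMAL1. Its most variable probe set (1435775_at) read 0.26, 0.46, -0.23 and 0.06 in the 4 unstressed arrays of day 6, against -1.05, -1.37, -0.75 and 0.08 at day 14. In stressed wounds the arrays read 0.07, 0.18, 0.03 and 0.11 at day 6, and -1.36, -1.55, -0.49 and -0.96 at day 14. The stressed groups did not overlap, whereas unstressed replicate 4 of day 14 stayed among the day 6 values. Clock fell by 0.91 on the log2 scale in unstressed wounds (SE 0.27, adjusted p = 0.015) and by 1.19 in stressed wounds (SE 0.27, adjusted p = 0.0028). Another 2 of its 4 probe sets fell as well: 1418659_at by 1.47 in unstressed wounds (adjusted p = 0.00023) and 0.80 in stressed wounds (adjusted p = 0.012), and 1418660_at by 0.61 (adjusted p = 0.032) and 0.55 (adjusted p = 0.046). The last of these lost its call in 8 of 25 alternative fits in unstressed and in 15 of 25 in stressed wounds. The remaining one, 1439314_at, differed by 0.17 and 0.36 and did not pass (adjusted p = 0.47 and 0.11). With only the high-Xist arrays of day 14, 1435775_at differed by -0.47 in unstressed wounds (adjusted p = 0.14), and without unstressed replicate 2 of day 14 by -0.71 (adjusted p = 0.055).

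Npas2 encodes a paralogue of CLOCK that can take its place. Its values (1421037_at) were 1.17, 0.37, 0.26 and 0.13 in unstressed wounds of day 6, and -0.94, -0.99, 0.18 and -0.82 at day 14. In stressed wounds they were 0.90, 1.26, 0.68 and 1.03 at day 6, and -0.77, -0.49, -0.25 and -0.81 at day 14. The stressed arrays of the 2 days were fully apart, and in unstressed wounds only replicate 3 of day 14 reached into the day 6 range. Npas2 was 2.93-fold lower at day 14 in stressed wounds (log2 difference -1.55, SE 0.26, adjusted p = 0.00036) and 2.18-fold lower in unstressed wounds (adjusted p = 0.0037). In the high-Xist arrays alone the unstressed difference was -0.80 (adjusted p = 0.071). The other probe set, 1421036_at, differed by -0.24 and -0.19 and did not pass (adjusted p = 0.14 and 0.23).

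Arntl, the partner of both, is not one of the 10 genes but belongs to the loop. Its more variable probe set (1425099_a_at) read 1.05, 0.58, 0.06 and 0.56 in unstressed wounds of day 6 and -0.93, -1.23, -0.48 and -0.09 at day 14. In stressed wounds it read 0.49, 0.10, 0.33 and 0.91, then -1.08, -1.76, -0.12 and -0.14. At both loading states all day 14 arrays lay below all day 6 arrays. On this probe set Arntl fell by 1.25 in unstressed wounds (SE 0.35, adjusted p = 0.01) and by 1.23 in stressed wounds (SE 0.35, adjusted p = 0.0093). Its other probe set, 1457740_at, differed by -0.355 in unstressed wounds and did not pass (adjusted p = 0.096). In stressed wounds 1457740_at differed by -0.422 (adjusted p = 0.047), with overlapping groups. All 3 activators thus had a probe set that was lower at day 14 in both comparisons.

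Among the repressors Per2, a scaffold of the inhibitory complex that is also induced by glucocorticoids, rose most. Its probe set 1417602_at read -1.03, -0.34, -1.45 and -0.87 in unstressed wounds of day 6, and 1.95, 0.88, -0.42 and 1.19 at day 14. In stressed wounds it read -1.12, -1.07, -1.0 and -0.90, and then 0.15, 0.59, -0.37 and 0.16. Replicate 3 was the lowest array of both day 14 groups, and in unstressed wounds it fell inside the day 6 range. Per2 rose 3.54-fold in unstressed wounds (log2 difference 1.82, SE 0.37, adjusted p = 0.0014) and 2.23-fold in stressed wounds (1.15, SE 0.37, adjusted p = 0.019). The stressed call was lost without stressed replicate 2 of day 14 (1.0, adjusted p = 0.057) and with the high-Xist arrays only (0.92, adjusted p = 0.077). A second probe set, 1457350_at, rose by 1.43 (adjusted p = 0.0019) and 0.86 (adjusted p = 0.03), and the latter call was lost when any 1 of 5 stressed arrays was left out. The third, 1417603_at, differed by 0.15 and 0.34 and did not pass (adjusted p = 0.6 and 0.21).

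Per1, the Per gene that responds fastest to light, cAMP and glucocorticoids, went the other way. Its single probe set read 0.20, 0.77, 0.32 and -0.53 in unstressed wounds of day 6, and -0.01, -0.50, -0.91 and -0.33 at day 14. In stressed wounds it read 0.13, 0.42, 0.57 and 0.29 at day 6, and -1.19, -0.72, -1.94 and -0.50 at day 14. The stressed groups were fully apart and the unstressed groups overlapped. Per1 fell by 1.44 in stressed wounds (SE 0.30, adjusted p = 0.0015), or 2.71-fold. In unstressed wounds the difference was -0.63 (SE 0.30, adjusted p = 0.11). The difference between these time effects is the same contrast as that between the loading effects of the 2 days, and it was -0.81 with an adjusted p of 0.56, so the time effects were not shown to differ.

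Per3, a repressor not needed for the rhythm itself in mice, had 6 probe sets that did not behave alike. The probe set 1421086_at read -0.20, -0.19, -0.24 and -0.11 in unstressed wounds of day 6, and 0.44, 0.53, 0.22 and 0.25 at day 14. In stressed wounds it read -0.26, 0.08, 0.02 and -0.09, and then 0.83, 1.13, 0.63 and 0.86. All day 14 arrays lay above all day 6 arrays, and stressed day 14 lay above unstressed day 14. It rose with time by 0.55 (SE 0.12, adjusted p = 0.0025) in unstressed and by 0.92 (SE 0.12, adjusted p = 5.9e-05) in stressed wounds. In unstressed wounds 1441445_at rose too, by 0.95 (adjusted p = 0.0015). In stressed wounds 1458176_at rose by 0.99 (adjusted p = 0.024) and 1460662_at by 0.54 (adjusted p = 0.0023). The call of 1458176_at was lost without stressed replicate 2 of day 6, or replicate 2 or 4 of stressed day 14 (0.86 to 0.90, adjusted p = 0.059 to 0.061). In unstressed wounds 1458176_at differed by 0.75 (adjusted p = 0.08), by 1.51 with the low-Xist arrays of day 14 only (adjusted p = 0.00038) and by -0.01 with the high-Xist arrays only (adjusted p = 0.99). The probe sets 1421087_at and 1442243_at passed in neither comparison, with differences from -0.03 to 0.43.

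Cry1 and Cry2 encode the cryptochromes, the stronger inhibitors of the CLOCK and BMAL1 pair. Cry1 read -0.45, -0.23, -0.24 and -0.04 in unstressed wounds of day 6, and 0.94, 0.15, 0.59 and 0.62 at day 14. It rose by 0.81 there (SE 0.16, adjusted p = 0.0014) with no overlap of the groups. In stressed wounds the time difference was 0.25 for Cry1 (adjusted p = 0.23), and for Cry2 the time differences were 0.48 in unstressed (adjusted p = 0.12) and -0.30 in stressed wounds (adjusted p = 0.32). With the low-Xist arrays of day 14 only, Cry2 differed by 0.81 (adjusted p = 0.005) and -0.49 (adjusted p = 0.044), and with the high-Xist arrays only by 0.15 (adjusted p = 0.69) and -0.11 (adjusted p = 0.78).

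Nr1d1 encodes REV-ERB alpha. It read 0.80, 1.11, 0.51 and 0.24 in unstressed wounds of day 6, and -0.25, -0.18, -0.62 and -0.71 at day 14. In stressed wounds it read 0.51, 0.34, 0.63 and 0.18, and then -1.03, -0.01, -1.66 and 0.01. The days did not overlap at either loading state, although 2 stressed arrays of day 14 lay close to 0 and the other 2 far below. Nr1d1 fell by 1.11 in unstressed wounds (SE 0.31, adjusted p = 0.01) and by 1.09 in stressed wounds (SE 0.31, adjusted p = 0.01). Clock, Npas2 and Arntl, which REV-ERB proteins are known to repress, fell in the same comparisons on their most variable probe sets. Whether these falls are related was not tested.

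Nr1d2, which encodes REV-ERB beta, gave different answers on its 2 probe sets. In stressed wounds 1416959_at read -0.59, -0.31, -0.44 and 0.06 at day 6, and 0.89, 1.09, 0.10 and 0.43 at day 14, with no overlap. It rose by 0.95 (SE 0.27, adjusted p = 0.011), a call lost with the high-Xist arrays only (0.59, adjusted p = 0.15). In the same comparison 1416958_at differed by -0.38 (SE 0.45, adjusted p = 0.5). In unstressed wounds neither passed, at 0.09 and -0.70 (adjusted p = 0.82 and 0.22).

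Dbp did not pass in any comparison. Its probe set 1438211_s_at read 0.27, 1.32, -0.55 and -0.11 in unstressed and -0.13, -0.94, 0.12 and -0.92 in stressed wounds of day 6. At day 14 it read 0.06, 0.63, -2.73 and -0.97 in unstressed and -0.85, 0.42, -2.87 and -0.43 in stressed wounds. Replicate 3 was the lowest array in both day 14 groups, and the ranges of all 4 groups overlapped. The time difference was -0.98 in unstressed wounds (SE 0.70, adjusted p = 0.28) and -0.47 in stressed wounds (SE 0.70, adjusted p = 0.61), and the second probe set gave -0.88 and -0.34. With the high-Xist arrays of day 14 only, the unstressed differences were -2.08 (adjusted p = 0.031) and -1.62 (adjusted p = 0.032). With the low-Xist arrays only, the first was 0.11 (adjusted p = 0.88).

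**Figure D2:**
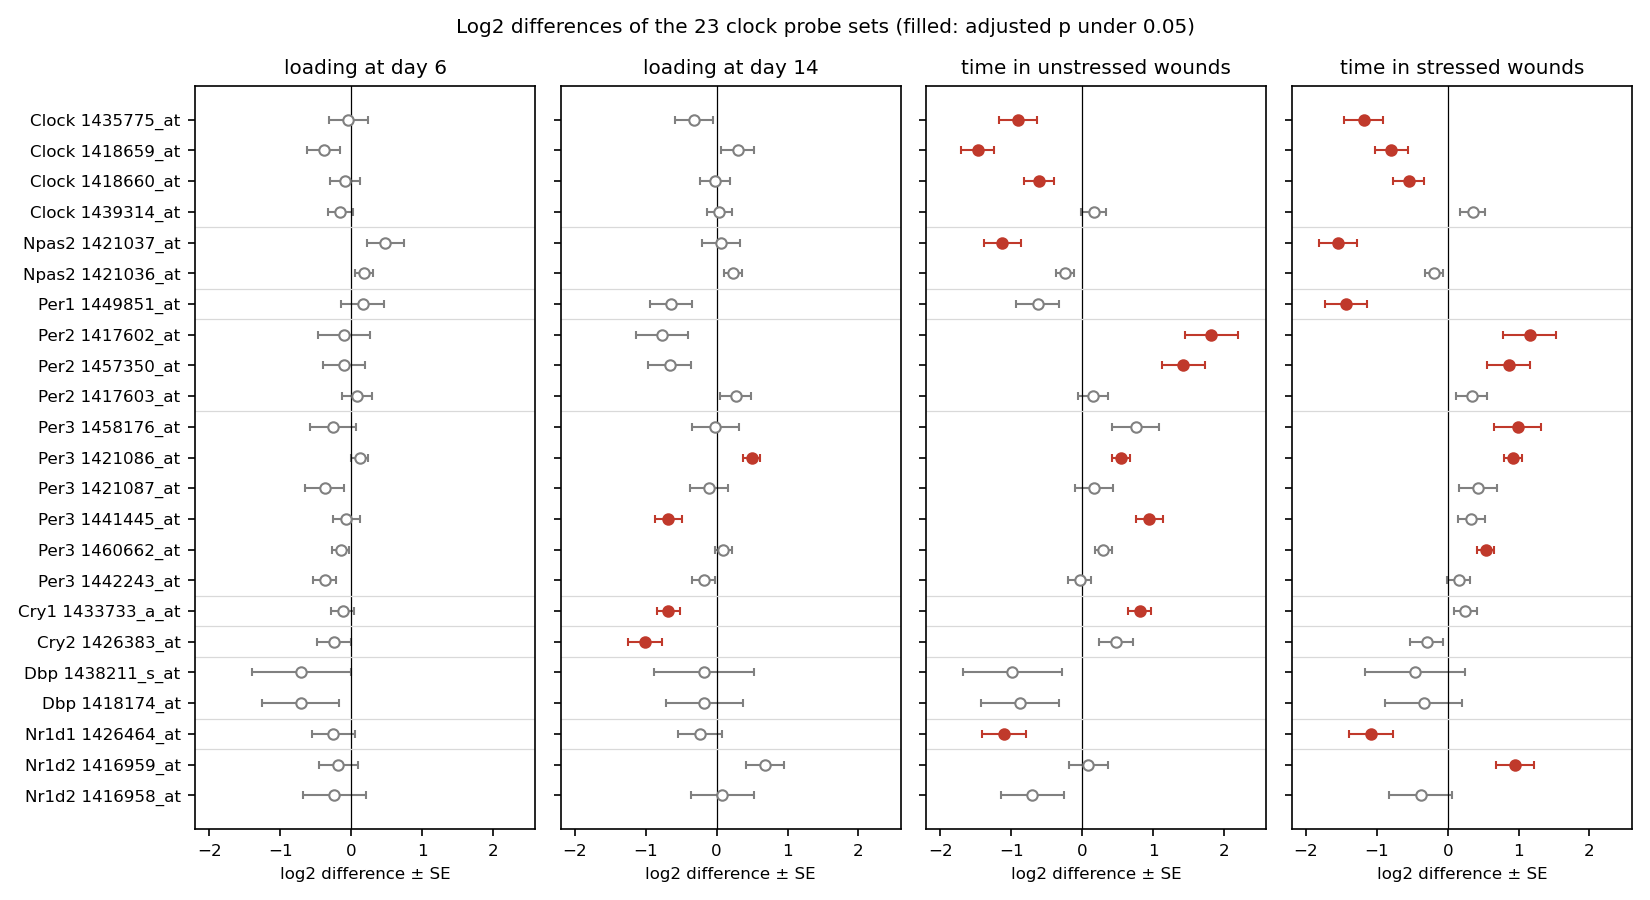
Log2 differences ± SE (horizontal axis) of the 23 clock probe sets for loading at each day and for time at each loading state, with filled points where the limma adjusted p was under 0.05. No point is filled for loading at day 6, 4 are filled for loading at day 14, and 10 and 12 for time in unstressed and stressed wounds.

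After 48 h of loading, at day 6, 0 of the 23 clock probe sets passed in limma or in any of its alternative fits, where 0.0258% of all probe sets did. One had an unadjusted p under 0.05, against 1982 of the 34945. That one, 1442243_at of Per3, read 0.02, 0.21, -0.04 and -0.02 in unstressed and -0.40, -0.30, -0.13 and -0.48 in stressed wounds. Its groups did not overlap, which held for 6.16% of all probe sets, and the difference was -0.37 (SE 0.16, adjusted p = 0.84). For Dbp the difference was -0.70 (SE 0.70), and for Npas2 0.49 (SE 0.26, adjusted p = 0.93).

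At day 14, after 10 days of loading, 4 of 23 probe sets passed, 1 higher and 3 lower in stressed wounds, where 7.35% of all probe sets passed, 3.31% higher and 4.04% lower. They belonged to 3 of the 10 genes, against 11.8% of all genes. Cry2 read 0.88, 0.66, -0.09 and 0.32 in unstressed and -0.71, -0.80, -0.90 and 0.14 in stressed wounds, so that only stressed replicate 4 overlapped the unstressed arrays. It was 2.02-fold lower in stressed wounds (log2 difference -1.01, SE 0.24, adjusted p = 0.02). Cry1 read 0.07, -0.37, -0.16 and 0.04 in stressed wounds, all below the unstressed values given above, a log2 difference of -0.68 (SE 0.16, adjusted p = 0.023). For Per3, 1421086_at was 0.50 higher (SE 0.12, adjusted p = 0.023), with groups apart. In contrast 1441445_at was lower by 0.68 (SE 0.19, adjusted p = 0.045), from 0.89, 1.11, 0.11 and 0.41 in unstressed to -0.35, -0.24, 0.15 and 0.22 in stressed wounds. These are different probe sets of one gene that moved in opposite directions, so no single direction can be given for Per3. Groups did not overlap for 2 of the 23 probe sets, against 10.1% of all.

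These 4 loading calls were less firm than the time calls. With the replicate number as a block at day 14, Cry1 (adjusted p = 0.013), Cry2 (0.037) and 1421086_at (0.038) passed, and 1441445_at did not (adjusted p = 0.11). Fitted on the 8 arrays of day 14 alone, adjusted p-values were 0.12 for Cry1, 0.13 for Cry2, and 0.13 and 0.19 for the Per3 probe sets. The Cry2 difference was -1.53 in the low-Xist pairs (replicates 1 and 2, adjusted p = 0.00063) and -0.50 in the high-Xist pairs (replicates 3 and 4, adjusted p = 0.54). For 1441445_at it was -1.29 (adjusted p = 0.00038) and -0.07 (adjusted p = 0.92). Probe sets without a call on all arrays split by class as well. For loading at day 14, Per3 1458176_at gave -0.86 in the low-Xist (adjusted p = 0.036) and 0.82 in the high-Xist pairs (adjusted p = 0.14), and Per2 1457350_at gave -1.26 (adjusted p = 0.0045) and -0.07 (adjusted p = 0.95). These fits keep the day 6 arrays, with which the 2 arrays of a day 14 group share the spread. For Cry1 (-0.70 and -0.66) and 1421086_at (0.49 and 0.51) both classes gave about the same difference. Per1, Per2 (1417602_at) and Nr1d2 (1416959_at) differed by -0.65, -0.77 and 0.68 and did not pass (adjusted p = 0.21, 0.22 and 0.14).

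Whether loading acted differently on the clock genes at the 2 days was tested as the difference between both loading effects. In limma 0 of 23 probe sets passed, where 0.00858% of all did, and 5 of 23 had an unadjusted p under 0.05, against 3506 of the 34945. The difference was -0.78 for Cry2 (SE 0.34, adjusted p = 0.46) and -0.56 for Cry1 (SE 0.23, adjusted p = 0.44), so the day 14 calls are not shown to be particular to day 14.

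Markers of several cell types moved with loading at day 14. Of 16 skeletal muscle genes 12 were lower in stressed wounds, and their mean per array ran from -1.33 to 0.76 in unstressed and from -4.36 to -0.34 in stressed wounds. Of 10 adipocyte genes 9 were lower, with means from 0.17 to 1.81 and from -2.40 to 0.15. Of 12 fibroblast genes 7, and of 10 macrophage genes 8, were higher. Of 10 endothelial genes 1 was higher. Of 11 keratinocyte and of 12 hair follicle genes 0 passed, with medians of 0.07 and -0.78. Over all genes 11.8% passed for loading at day 14. With time, 12 of 12 hair follicle genes rose in unstressed and 10 of 12 in stressed wounds, and 9 and 7 of 10 macrophage genes fell. Over all genes 56.9% passed with time in unstressed and 62.6% in stressed wounds. In stressed wounds 16 of 16 skeletal muscle genes fell with time (median -2.70), against 0 in unstressed wounds, where 1 rose. Of 10 adipocyte genes 6 rose and 1 fell in unstressed wounds (median 1.22), and in stressed wounds 4 fell and 1 had probe sets in both directions (median -1.48). Keratinocyte, fibroblast and endothelial genes had medians with time between -0.97 and -0.16. Among 11 keratinocyte genes 4 fell in unstressed wounds, and 3 fell and 2 rose in stressed wounds. Among 12 fibroblast genes 5 fell and 1 had probe sets in both directions at each loading state. Among 10 endothelial genes 2 fell in unstressed wounds, and 4 fell and 2 rose in stressed wounds. The part of these shifts in the clock genes' differences was not tested.

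Around the group means, the median SD of the clock probe sets was above that of all probe sets in every group. The median SD of the 23 probe sets was 0.37 in unstressed and 0.38 in stressed wounds of day 14, against 0.23 and 0.25 over all probe sets. At day 6 it was 0.30 against 0.19 in unstressed and 0.19 against 0.18 in stressed wounds. The largest was that of Dbp in unstressed wounds of day 14, with an SD of 1.47 (n = 4). Replicate 3 was the lowest of its group in 15 of 23 probe sets in unstressed and in 13 of 23 in stressed wounds of day 14. In 11 probe sets, those of Per1, Cry2, Dbp, Nr1d2, 2 of Per2 and 3 of Per3, it was the lowest in both. At day 6 the array most often lowest was replicate 3 in unstressed wounds (12 of 23) and replicate 2 in stressed wounds (8 of 23). How often each array was lowest over all probe sets was not counted, so these counts are not shown to be particular to clock genes.

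A summary per array shows the same arrays. The mean of Per1, Per2, Per3, Dbp, Nr1d1 and Nr1d2 minus the mean of Clock and Npas2 was -0.73, 0.16, -0.45 and -0.41 in unstressed and -0.77, -1.12, -0.42 and -0.89 in stressed wounds of day 6. At day 14 it was 1.48, 1.60, -0.64 and 0.16 in unstressed and 0.73, 1.36, -0.72 and 0.96 in stressed wounds. Of the 8 day 14 arrays, 5 lay above the highest day 6 array, unstressed replicate 4 matched it to 2 decimals, and both replicates 3 lay among the day 6 arrays. In unstressed wounds of day 14 replicate 3 also stood at an end of its group on all 7 marker lists. It was the lowest for skeletal muscle (-1.33, the others 0.67 to 0.76), adipocytes (0.17, the others 0.58 to 1.81), keratinocytes (-1.04), fibroblasts (-1.64), macrophages (-2.51) and endothelium (-1.48), and the highest for hair follicle (4.19). In stressed wounds replicate 3 was the lowest for macrophages (-1.09) and lay within its group on skeletal muscle (-2.68), adipocytes (-1.16), keratinocytes (-0.13), hair follicle (2.75) and endothelium (-0.62), and was the highest for fibroblasts (0.21). The part of this in the clock values was not tested.

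**Figure D3:**
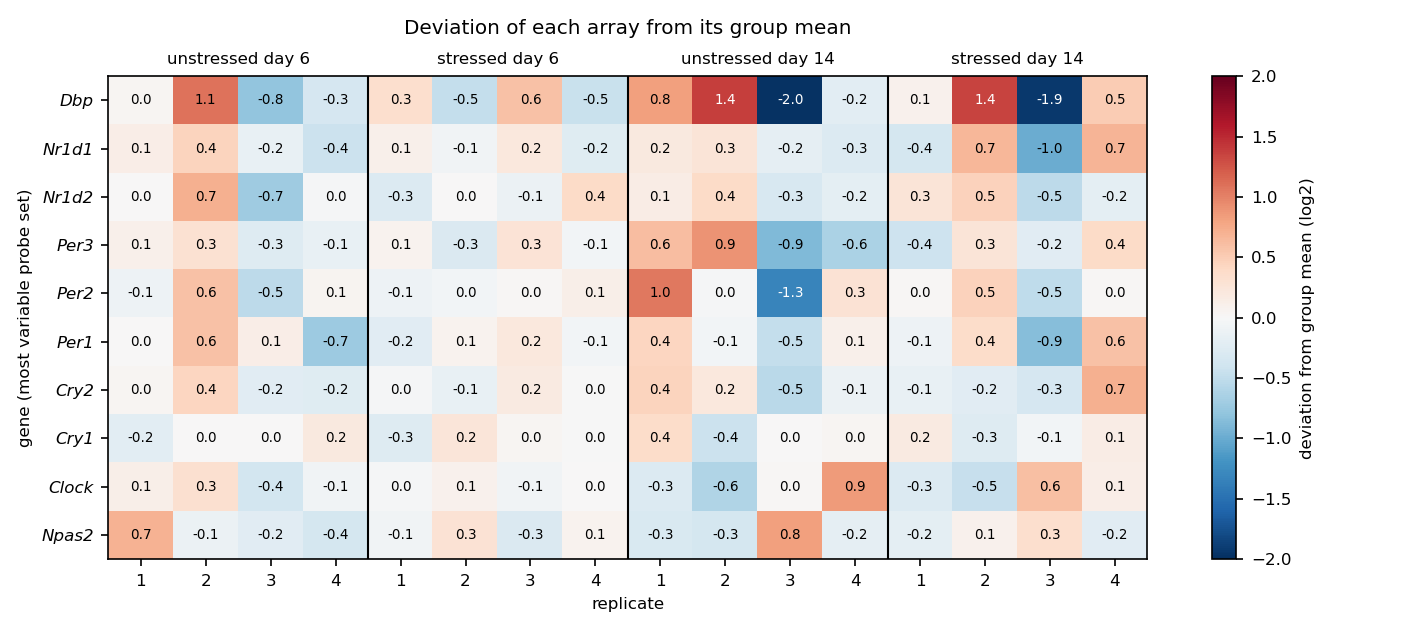
Deviation of each array from its group mean (log2, colour and printed values) for the most variable probe set of each clock gene (rows) on the 16 arrays (columns, by group and replicate). The 2 replicate 3 arrays of day 14 have the lowest Dbp deviations, -1.98 and -1.94, and replicate 2 of both groups the highest, 1.38 and 1.35.

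Within groups, on the most variable probe set of each gene, Per3, Nr1d1 and Nr1d2 varied with Dbp by both measures of correlation. The other 6 genes passed by 1 measure or by neither. Over the deviations of the 16 arrays from their group means, Dbp was compared with the other 9 genes, with p-values from permutations within groups adjusted over the 9 relations. The correlation was highest with Per3 (1458176_at; Pearson r = 0.796, adjusted permutation p = 0.0066; Spearman rho = 0.815, adjusted permutation p = 0.0099). Nr1d1 was close to it (r = 0.789, adjusted permutation p = 0.0036; rho = 0.762, adjusted permutation p = 0.0099). The points of a relation share the array, so any difference in scaling between arrays enters both genes. The permutations also treat the arrays of a day as independent, although same-numbered arrays of day 14 deviated together. Dbp deviated by -1.98 and -1.94 in the replicates 3 and by 1.38 and 1.35 in the replicates 2. Each day 14 group also mixes both Xist classes. In unstressed wounds Dbp deviated by 0.81 and 1.38 on the low-Xist and by -1.98 and -0.22 on the high-Xist arrays. In stressed wounds these values were 0.08 and 1.35 against -1.94 and 0.5. The p-values account for neither the pairing nor the class. The 2 arrays farthest from the median of Dbp were the replicates 3 of day 14. Without them r was 0.794 for Per3 and 0.773 for Nr1d1. Within day 6 and day 14 alone r was 0.930 and 0.777 for Per3, and 0.861 and 0.773 for Nr1d1.

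For the remaining genes the relation was weaker or leaned on those arrays. Per2 (r = 0.760, adjusted permutation p = 0.021; rho = 0.618, 0.062) and Per1 (r = 0.705, adjusted permutation p = 0.023; rho = 0.550, 0.082) passed by r and not by rho. Their r without the 2 arrays was 0.546 and 0.472. Nr1d2 passed by both (r = 0.681, adjusted permutation p = 0.02; rho = 0.638, 0.044), with r = 0.599 without them. Cry2 passed by rho only (rho = 0.682, adjusted permutation p = 0.044; r = 0.676, 0.059), and had r = 0.508 without them. The activators had negative values, r = -0.574 for Npas2 (rho = -0.476, adjusted permutation p = 0.076 and 0.14) and r = -0.435 for Clock (rho = -0.376, adjusted permutation p = 0.27 for both), and neither passed. The sign of Clock turned between the days, at 0.661 in day 6 and -0.636 in day 14. Cry1 gave r = -0.238 and rho = -0.200, with adjusted permutation p-values of 0.5 and 0.52.

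Outside the 10 genes, the probe sets whose deviations were most like those of Dbp over the 16 arrays were Vps35l (r = 0.938), Acot9 (0.933), Gstm2 (0.933), Ndn (0.924), Coa8 (0.920) and Slc38a4 (0.918). The least alike were Rbm12b2 (-0.938), Ovgp1 (-0.931), Zpbp (-0.928) and Tmem116 (-0.919). Of the other clock genes, only Tef, Hlf, Ciart, Arntl, Nfil3 and Bhlhe41 were looked up. Among them Tef, a paralogue of Dbp that binds the same D-boxes, came nearest, with r = 0.904 for 1424175_at, rank 12 of 34922 probe sets. Its other probe sets were far lower, 1450184_s_at at 0.621 (rank 1920) and 1438033_at at 0.434 (rank 5568). Hlf, the third gene of that family, had 0.752 and 0.723 on its 2 probe sets, Ciart 0.534, and Arntl -0.478 and -0.514. Nfil3 had -0.384, and Bhlhe41 -0.074 and -0.225. The top-ranked values are the highest out of many, and all are given as a description.

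Of 19 further genes of the clock mechanism 17 were measured. None passed for loading at day 6, and at day 14 only Btrc, a subunit of the ligase that marks PER proteins for degradation, was higher, by 0.38 (adjusted p = 0.047). With time in unstressed wounds 3 were higher, 3 lower and 3 had probe sets in both directions. In stressed wounds 3 were higher, 6 lower and 3 in both directions. These 9 and 12 of 17 genes stand beside the 56.9% and 62.6% of all genes given above. The median difference of the 17 was -0.32 and -0.40, against -0.09 and -0.14 over all genes, taking the most variable probe set of each.

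Among those that fell was Arntl2, a paralogue of Arntl, by 1.40 in unstressed (adjusted p = 0.00015) and 0.84 in stressed wounds (adjusted p = 0.0047). Rora, which encodes an activator at ROREs, fell by 1.98 (adjusted p = 0.0004) in unstressed wounds and fell by 1.85 (adjusted p = 0.00058) in stressed wounds on 1424034_at, while its probe set 1441085_at rose by 0.55 and 0.78. Nfil3, a repressor at D-boxes, fell by 1.40 in stressed wounds (adjusted p = 0.0024), and Bhlhe40, a repressor at E-boxes, fell by 0.65 (adjusted p = 0.048). Its paralogue Bhlhe41 rose by 0.65 (adjusted p = 0.0017) in unstressed and 0.45 (adjusted p = 0.014) in stressed wounds. Csnk1d, a kinase that acts on PER proteins, rose by 0.60 and 0.71 on 1456727_a_at.

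Of 20 genes listed as clock or glucocorticoid outputs 18 were measured. None passed for loading at day 6, while at day 14 6 were lower in stressed wounds and none higher, against 11.8% of all genes that passed in either direction. Their median was -0.43, against 0.01 over all genes. Pdk4, an inhibitor of glucose oxidation, had a log2 difference of -3.16 (adjusted p = 0.0017). The log2 differences were -1.79 for Usp2 (adjusted p = 0.0081), -1.32 for Klf15 (0.0091) and -0.75 for Nampt (0.027). For the other 2 genes the call rested on a less variable probe set. These were 1456341_a_at of Klf9 (-1.39, adjusted p = 0.049) and 1434277_a_at of Ypel2 (-0.44, adjusted p = 0.041). The most variable probe sets of these 2 genes, 1436763_a_at and 1454901_at, did not pass. Skeletal muscle and adipocyte markers were lower in the same arrays, as given above, and their part in this count was not tested.

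With time in unstressed wounds 2 of the 18 measured output genes were higher, 3 lower and 1 in both directions. In stressed wounds 2 were higher and 9 lower. Over all genes 56.9% passed in unstressed and 62.6% in stressed wounds, so these counts are not above the share of the whole array. Cdkn1a, a cell cycle inhibitor, fell by 3.11 (adjusted p = 6.1e-06) in unstressed wounds and fell by 3.28 (adjusted p = 5.3e-06) in stressed wounds on 1421679_a_at. The glucocorticoid-induced gene Fkbp5 rose instead, by 1.07 (adjusted p = 0.03) and 1.42 (adjusted p = 0.0062) on 1448231_at. Tsc22d3, also induced by glucocorticoids, rose by 0.98 (adjusted p = 0.00021) and 0.93 (adjusted p = 0.00028) on 1444365_at. That is not its most variable probe set, which passed in neither comparison. Klf9, which glucocorticoids also induce, fell by 2.30 in unstressed wounds and fell by 2.90 in stressed wounds on 1436763_a_at, although in unstressed wounds another of its probe sets, 1452723_at, rose by 0.71 (adjusted p = 0.0036).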

How the data were processed

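The deposited table holds log2 signals of 45101 probe sets on 16 arrays. Per the labels' protocols the array carries 20 oligonucleotide pairs a gene, and the authors used GeneSpring GX 11.0. How background, summarization and normalization were done is not stated there. The deposited log2 values are centred per probe set, with an unknown reference: 6.27% of probe sets had a median within 0.001 of 0. The scale was read as log2 because the largest range, 10.08, is more than the 4.82 possible on a log10 scale from a 16-bit image. Natural logs remain possible. Array medians ran from -0.01 to 0.05.

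Probe sets were named with the platform annotation. There were 34945 with 1 symbol, 932 with several, and 9224 with none or for controls, and only the first were tested. Group means of all 16 arrays were fitted with limma 3.58.1 (lmFit, eBayes) in R 4.3.3, and 5 two-sided contrasts were adjusted over all 34945 probe sets by Benjamini-Hochberg at 0.05. The fit was tested on simulated data. Where 1 value stands for a gene the probe set of largest interquartile range was taken. Other clock genes came from 2 lists, counted whole, and those past the threshold in a comparison could be named, as well as Arntl in any case. The 6 most and 4 least Dbp-like probe sets were named by Pearson r. Correlations used 100000 permutations within groups. Markers of 7 cell types were averaged per array.

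Replicates were compared, and none were identical. The p-values of the main fit rest on the spread between mice within groups. That spread is pooled over the 4 groups for each probe set and moderated across probe sets by eBayes. Between the day 14 groups, same-numbered arrays deviated together (r = 0.249, 0.172, 0.259 and 0.144). Differently numbered arrays of the same Xist class gave r of 0.233, 0.182, 0.201 and 0.069, and arrays of different classes gave -0.285 to -0.048. Pairing by number therefore cannot be told apart from a shared Xist class. At day 6 r of same-numbered arrays ran from -0.42 to -0.001. The main fit took no pairs, and the numbers entered only the fit with the replicate block. Array precision is limited by the number of arrays. Members and lists were chosen with earlier results of these data known. Tables and plots used Python 3.11.15 with numpy 2.4.6, pandas 2.3.3, matplotlib 3.10.9 and scipy 1.17.1.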

Additional observations from a re-analysis of the deposited data

Results flagged for a closer look

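Of the 92 groups of 4 arrays formed by the 23 clock probe sets, 5 held 1 array far from the other 3, by a criterion that chance meets in about 1 in 20 groups. Npas2 (1421037_at) read 0.18 in unstressed replicate 3 of day 14, with a distance of 1.0 to the nearest array, and Nr1d2 (1416958_at) read -1.82 in the same array, 1.6 from the nearest. Per3 (1460662_at) read 0.08 in stressed replicate 3 of day 14. At day 6, Clock (1418659_at) read -0.15 in unstressed replicate 3, and Per3 (1421087_at) read -0.76 in stressed replicate 2. Of the 5, 3 lay in replicate 3 of a day 14 group.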

How the results depend on the processing

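The number of clock genes past the threshold for loading at day 14, 3 of 10, came to 0 after quantile normalization, 0 when only the day 14 arrays were fitted and 0 with the high-Xist arrays of day 14 only. It ran from 0 to 4 when 1 array was left out: 0 without stressed replicate 2 of day 14, 1 without unstressed or stressed replicate 1 of day 14, and 4 without unstressed replicate 3 of day 14. For the difference between the loading effects, 0 genes became 2 with array weights (Cry2 -1.14, Per3 1441445_at -0.98) and 3 with the low-Xist arrays of day 14 only (also Per2 1457350_at, -1.16). The other 3 comparisons stayed within 1.5 times: 0 genes for loading at day 6, 5 to 7 for time in unstressed and 6 to 8 for time in stressed wounds. In paired fits with the replicate block, 3 genes passed for loading at day 14, 6 and 7 for time and 0 otherwise. It ended the calls of Per3 1441445_at (loading at day 14, adjusted p = 0.11) and Clock 1418660_at (stressed, 0.065) and added Per3 1458176_at (unstressed, 0.048). Of 661 values of called probe sets under the alternatives, 0 changed sign and 75 were no longer past the threshold, 36 of 101 for loading at day 14. Leaving out both replicates 3 of day 14 was chosen after seeing the data and left 3 genes, with Cry1 lost (adjusted p = 0.072) and Per2 1417602_at added (-1.04, 0.044). Over all probe sets, calls for loading at day 6 went from 9 (5 higher, 4 lower) to 496 (338 and 158) with quantile normalization, 591 with array weights, 16 on its own arrays, 1 with the replicate block, and 15, 16 and 18 with the Xist covariate, low-Xist and high-Xist arrays. For loading at day 14, 2567 became 364, 5149, 122, 2186, 4085, 6548 and 800 in the same order. For the difference, 3 became 4 (2 and 2) with quantile normalization, 865 with array weights, 16 with the replicate block, 76, 2749 and 83 with the Xist settings, 13 among the probe sets of larger interquartile range, 7 with 1 probe set per gene and 45 without both replicates 3. Without 1 array the counts ran from 0 to 11 for loading at day 6, from 948 (without stressed replicate 2 of day 14) to 4800 (without stressed replicate 4 of day 14) for loading at day 14, and from 1 to 333 (also without stressed replicate 4 of day 14) for the difference. Why these counts moved was not tested. Signal over background is not given in the centred values, so dim probe sets could not be set apart.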
